A study of Mus musculus with 16 samples.

Results

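The mRNA of 10 apolipoproteins (Apoa1, Apoa2, Apoa4, Apoa5, Apob, Apoc1, Apoc3, Apoe, Apoh and Apom) was followed in endothelial cells (ECs), hepatic stellate cells (HSCs), Kupffer cells (the resident macrophages) and hepatocytes of mouse liver. The 10 genes were taken by symbol out of 47729 gene rows, and all 10 passed the filter on low counts in every comparison. The libraries came from adult mice with unchallenged livers, which the study's methods give as males of 8 weeks unless stated otherwise. Mice labelled KO carried floxed Zeb2 alleles (exon 7) and a tamoxifen-inducible Cre driven by the Cdh5 promoter, which is active in endothelium, on a background with a Cre-dependent eGFP reporter. Mice labelled WT were littermates without Cre, and both groups received tamoxifen on 5 consecutive days. Each of the 4 cell types was sequenced in 2 libraries per genotype label, giving 16 libraries, which are named here by cell type, label and the number in the label. The study's methods describe isolating the 4 cell types at the same time from liver cell suspensions. The labels do not state which libraries of different cell types came from the same liver, so that p-values measure the spread between these libraries. Zeb2, the targeted gene, had 199 and 130 CPM in ECs labelled KO against 106 and 106 CPM in ECs labelled WT, so its count was no lower under the KO label. Reads on exons other than the floxed exon 7 can still be counted on the gene, so this count does not test the deletion, and the groups are called by their labels throughout. CPM are a gene's reads scaled to the total counted on genes in its library.

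Apolipoproteins are the protein components of lipoprotein particles, which carry triglycerides and cholesterol through blood and lymph. Hepatocytes secrete most of them, Apob as the scaffold of very low-density lipoproteins and Apoa1 as the scaffold of high-density lipoproteins. Apoe and Apoc1 are also known products of macrophages, and Apoe directs the uptake of remnant particles through receptors of the LDL receptor family.

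Between 12872706 and 15690506 reads per library fell on genes, and the lowest count of any member in any library was 13 reads (Apom in HSC KO 8). A count of 3 reads corresponds to 0.191 to 0.233 CPM and was taken as the floor. The replicates of each group differed by more than sampling noise (mean chi-square per gene of 32.4 to 119.5). The labelled cell types carried their defining markers. The summed level of 10 EC markers was 19387 to 28273 CPM in EC libraries, against 96.8 to 3223 CPM elsewhere. That of 10 HSC markers was 75900 to 90668 CPM in HSC libraries against 113 to 1507 CPM elsewhere, and that of 10 Kupffer cell markers was 45474 to 58841 CPM in Kupffer cell libraries against 157 to 2548 CPM elsewhere. Hepatocyte RNA was followed with 36 reference genes that are not apolipoproteins (Alb, Ttr, Fga, Serpinc1, Cps1, Cyp2e1 and others). Their median level, as a percentage of the mean over the 4 hepatocyte libraries, was 10.7% and 21.7% in ECs labelled WT against 2.70% and 1.84% in ECs labelled KO. In HSCs it was 3.34% and 7.08% under the WT label against 0.571% and 1.13% under the KO label. In Kupffer cells it was 4.64% and 8.22% under the WT label and 8.83% and 10.8% under the KO label. In bulk RNA, fewer cells of a type and less RNA per cell cannot be told apart.

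The 10 genes lie at 6 sites of the genome (GRCm38, positions from GENCODE M21). Apoe (ENSMUSG00000002985, chromosome 7, 19696109 to 19699188) and Apoc1 (ENSMUSG00000040564, 19689481 to 19692660) are neighbours on the reverse strand. Apoa1 (ENSMUSG00000032083, 46228580 to 46230466), Apoc3 (ENSMUSG00000032081, 46232933 to 46235636), Apoa4 (ENSMUSG00000032080, 46240696 to 46243459) and Apoa5 (ENSMUSG00000032079, 46268633 to 46271919) form a cluster on chromosome 9, in which Apoc3 alone of the members is on the reverse strand. Apoa2 (ENSMUSG00000005681) is on chromosome 1, Apoh (ENSMUSG00000000049) on chromosome 11, Apob (ENSMUSG00000020609) on chromosome 12 and Apom (ENSMUSG00000024391) on chromosome 17. Apoa4 shares 34.8% of its exon bases with the antisense gene Gm10680, on which 1 read was counted over the 16 libraries, and Apoa5 shares 20.8% with the antisense gene Gm47544. The strand setting of the counter is not given in the sources used here.

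Promoter windows of 300 bases (250 before to 50 after the start of transcription) were given by RefSeq for 8 of the 10 members on GRCm38.p6, and not for Apoc1 and Apoc3. Those of Apoe, whose mRNA was high in all 4 cell types, and of Apoa1 and Apob, whose mRNA went with the hepatocyte reference genes, are printed 5′ to 3′ with motif matches in capitals.
Apoe, chr7:19699139-19699438, reverse strand: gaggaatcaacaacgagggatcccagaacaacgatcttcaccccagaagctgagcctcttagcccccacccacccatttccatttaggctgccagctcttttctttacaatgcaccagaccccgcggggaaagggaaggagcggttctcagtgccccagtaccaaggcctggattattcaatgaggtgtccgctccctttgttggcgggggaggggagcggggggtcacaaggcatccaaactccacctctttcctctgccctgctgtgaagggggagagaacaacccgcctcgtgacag
Apoa1, chr9:46228380-46228679, forward strand: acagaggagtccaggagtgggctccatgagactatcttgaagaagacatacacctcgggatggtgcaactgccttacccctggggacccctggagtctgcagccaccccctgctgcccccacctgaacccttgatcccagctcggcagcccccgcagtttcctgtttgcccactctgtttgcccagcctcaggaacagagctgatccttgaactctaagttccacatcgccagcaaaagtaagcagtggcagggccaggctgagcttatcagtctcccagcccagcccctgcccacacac
Apob, chr12:7977427-7977726, forward strand: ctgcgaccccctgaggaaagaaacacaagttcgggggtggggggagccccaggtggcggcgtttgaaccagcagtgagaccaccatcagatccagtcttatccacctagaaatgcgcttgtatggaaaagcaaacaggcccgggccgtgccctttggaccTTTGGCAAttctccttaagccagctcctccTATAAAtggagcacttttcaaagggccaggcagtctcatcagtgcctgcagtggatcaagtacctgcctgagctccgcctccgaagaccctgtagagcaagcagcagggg
The capitals in the Apob window mark TTTGGCAA, which matches TTGCNNAA on the other strand and starts 90 bases before the start site, and TATAAA, which starts 60 bases before it. TATAAA was present in 13.6% and TTGCNNAA in 10.8% of all 32851 windows, searched on both strands. Over all their windows, TATAAA was found for 4 of the 8 members (Apoa2, Apoa5, Apob and another window of Apoe) and TTGCNNAA for 2 (Apoa2 and Apob). CAAAGTCCA and GGGCGG matched in none of their windows and are present in 0.475% and 35.7% of all windows. The direct repeat 1, the HNF1 motif and the LXR direct repeat 4 also matched in none, against 0.0396%, 0.0609% and 0.0152% of all windows. These are matches of letters only.

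Hepatocytes had the highest levels of the family. The 10 members together made up 68063 to 79248 CPM in the 4 hepatocyte libraries, and Apoe alone was 42.4% to 46.3% of this sum. Per kilobase of exon, Apoa1 (18037 ± 1454 CPM per kb, SD, n = 4), Apoe (17925 ± 989) and Apoa2 (16092 ± 1763), the second protein of high-density lipoproteins, were highest, and the ranges of neighbours in this order overlapped. Apoc3 (4315 ± 329 CPM per kb), which restrains the lipolysis of triglycerides, and Apoc1 (3961 ± 402) followed and also overlapped. Apoh (2752 ± 320 CPM per kb), which binds phospholipids and is also called beta-2-glycoprotein I, Apoa5 (1305 ± 229), which promotes lipolysis by lipoprotein lipase, and Apom (637 ± 57.8), the carrier of sphingosine-1-phosphate, each stood apart from the next gene. Apoa4, a gene better known from the intestine, had 97.9 ± 31.8 CPM per kb and Apob had the lowest value, 36.4 ± 8.03 CPM per kb, over 13934 bases of exon. In CPM without length, Apoa4 (119 to 228 CPM) was below Apob (359 to 621 CPM). Coverage along the transcripts was not examined, so the place of a gene as long as Apob in the order per kilobase is uncertain. In hepatocyte library KO 41, Apob was the member furthest below its hepatocyte mean (70.6% of it). The 36 reference genes had a median of 104% of their means there, with quartiles of 95.2% and 109%. The lowest of them was Cps1, a urea cycle enzyme, at 35.4%, and the highest was Cyp2e1 at 150%.

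**Figure D1:**
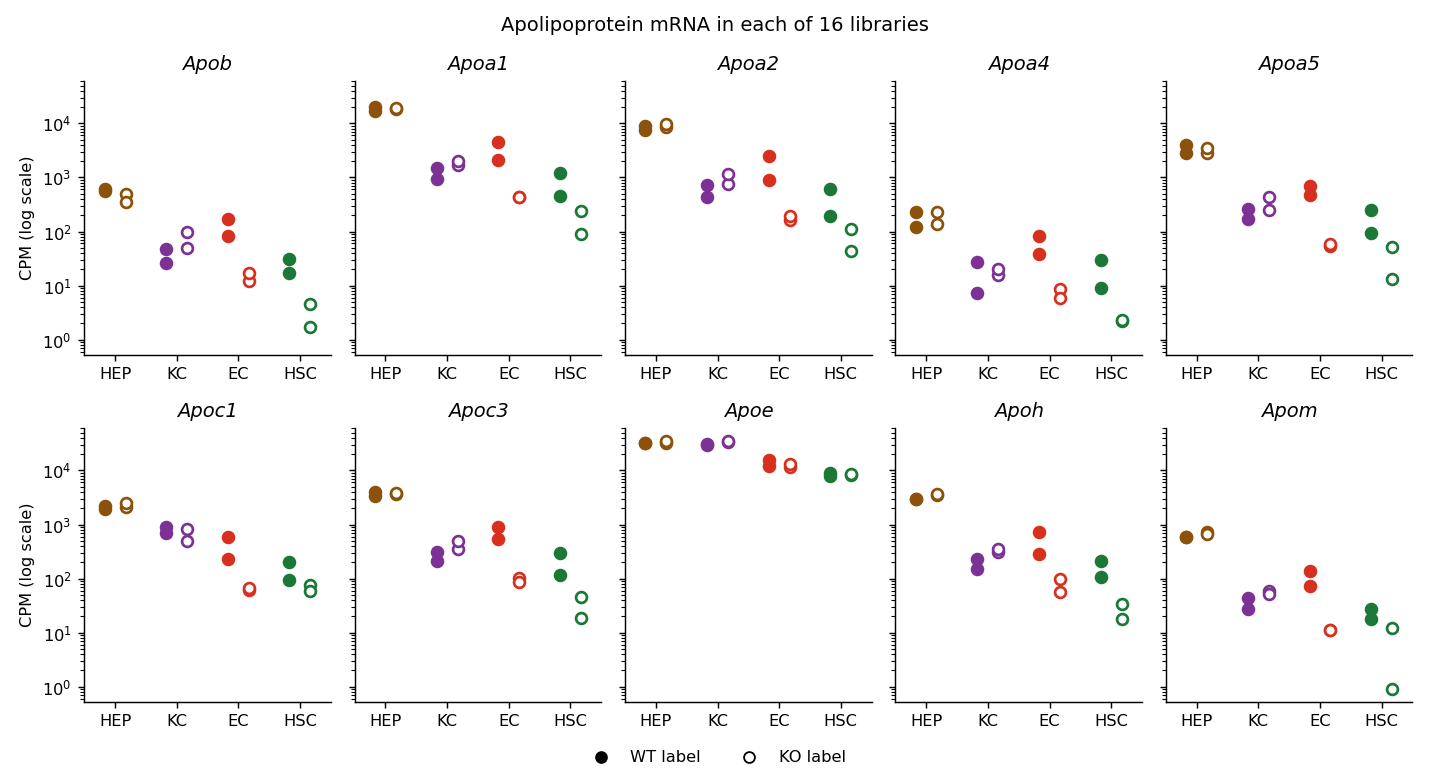
CPM (log scale) of each member in each of the 16 libraries, by cell type, with filled points for the WT label and open points for the KO label. Apoe stayed between 7734 and 35663 CPM in all libraries, while the other members fell below their hepatocyte level in ECs, HSCs and Kupffer cells.

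Apoe was the leading apolipoprotein of every non-hepatocyte library. In Kupffer cells, Apoe had 29566 and 31470 CPM under the WT label and 34010 and 35663 CPM under the KO label, against 31481, 32167, 32547 and 35593 CPM in hepatocytes. The ranges of Kupffer cells and hepatocytes overlapped. In ECs, Apoe had 12261 and 15658 CPM under the WT label and 13287 and 11729 CPM under the KO label. In HSCs it had 7734 and 8842 CPM under the WT label and 8555 and 8092 CPM under the KO label. The order of the cell types was thus Kupffer cells and hepatocytes, then ECs, then HSCs, and the last 2 did not overlap with each other or with the first 2. Per kilobase, Apoe (17779 ± 1468 CPM per kb in Kupffer cells, 7200 ± 947 in ECs and 4519 ± 267 in HSCs, SD, n = 4) stood apart from the member next to it in all 3 cell types. Apoe made up 86.8% to 91.2% of the family's CPM in Kupffer cells, 60.3% and 72.1% in ECs labelled WT against 92.9% and 93.1% in those labelled KO, and 75.7% to 97.2% in HSCs. Kupffer cell markers had a summed level in ECs of 1.03% to 2.31% of that in Kupffer cells. In HSCs this level was 1.04% to 5.13%. The part of Kupffer cell RNA in the Apoe levels of ECs and HSCs was not tested.

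Apoc1, a small apolipoprotein that inhibits lipoprotein uptake, was the member next to Apoe in Kupffer cells when levels are set against hepatocytes. Kupffer cells had 893 and 705 CPM of Apoc1 under the WT label and 500 and 825 CPM under the KO label, which is 22.8% to 40.7% of the hepatocyte mean. ECs had 229 and 581 CPM under the WT label and 66.0 and 62.4 CPM under the KO label. HSCs had 92.7 and 205 CPM under the WT label and 59.3 and 77.6 CPM under the KO label. The hepatocyte libraries had 1972, 2104, 2205 and 2497 CPM. All 4 Kupffer cell libraries lay above the 4 HSC libraries and below the 4 hepatocyte libraries, while they overlapped with ECs.

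The other 8 members lay below their hepatocyte levels in all libraries of the 3 cell types. Apoa1 had 2130 and 4554 CPM in ECs labelled WT and 443 and 428 CPM in ECs labelled KO, 949 and 1503 CPM in Kupffer cells labelled WT and 1668 and 2010 CPM in those labelled KO. HSCs had 445 and 1191 CPM of Apoa1 under the WT label and 89.4 and 243 CPM under the KO label, and hepatocytes had 16602 to 20147 CPM. Within each library Apoa1 had close to the percentage of its hepatocyte level that the reference genes had, for example 11.4% against 10.7% in EC WT 34 and 24.4% against 21.7% in EC WT 38. The widest gap by ratio was 2.38% against 3.34% in HSC WT 32. Apob had 82.2 and 173 CPM in ECs labelled WT, 16.8 and 12.1 CPM in those labelled KO, and 359 to 621 CPM in hepatocytes. Over the 8 members and 12 libraries (96 values), the ratio of a member's percentage to the reference median was 1.02 at the median, and 91 values lay between 0.5 and 2. The lowest ratio was 0.244 (Apom in HSC KO 8, where it had 13 reads) and the highest was 2.59 (Apoa4 in EC KO 46). Apoa4 had the highest of these ratios in each of the 3 cell types and was also the most variable member in hepatocytes, with 119, 138, 227 and 228 CPM.

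**Figure D2:**
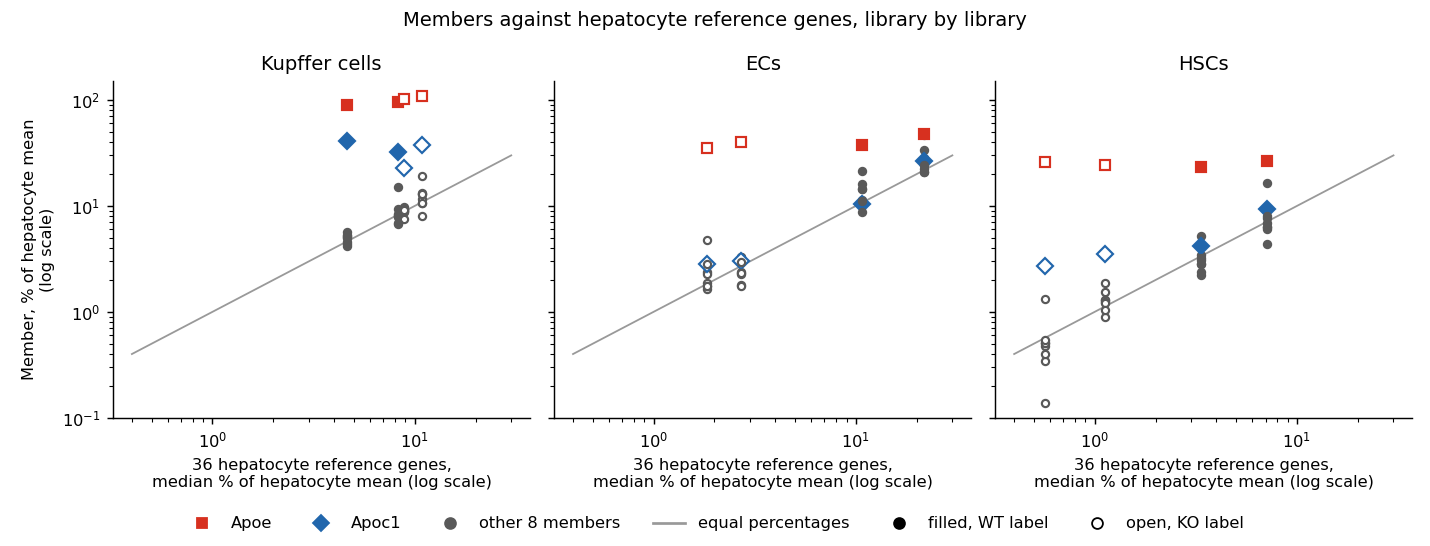
Each member's level as a percentage of its hepatocyte mean (log scale) against the median percentage of 36 hepatocyte reference genes in the same library (log scale), with filled symbols for the WT label, open symbols for the KO label and a line of equal percentages. Apoe (squares) stayed at 23.5% to 108% whatever the reference percentage, Apoc1 (diamonds) lay above the line in all Kupffer cell and HSC libraries, and 91 of the 96 values of the other 8 members were within a factor of 2 of the line.

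Each cell type was then compared with hepatocytes over all 16 libraries (edgeR quasi-likelihood test, TMM scaling, Benjamini-Hochberg adjustment over 17214 genes). All 10 members were lower in ECs, in HSCs and in Kupffer cells, where 25.5%, 24.4% and 26.3% of all genes tested were called lower. In ECs, the log2 ratio was -2.70 for Apoe (SE 0.21, adjusted p = 4.32e-07) and lay between -5.60 and -4.47 for the other 9. In HSCs, it was -3.12 for Apoe (SE 0.21, adjusted p = 1.55e-07), -5.57 for Apoc1 and -6.96 to -5.88 for the other 8. In Kupffer cells, it was -1.07 for Apoe (SE 0.20, adjusted p = 0.000548), -2.64 for Apoc1 (SE 0.35, adjusted p = 4.28e-05) and -4.92 to -4.34 for the other 8. The scaling moved these values. With library totals in place of TMM, the median log2 ratio of all genes rose from 0.24 to 1.24 in Kupffer cells, from 0.54 to 1.85 in ECs and from 0.60 to 1.67 in HSCs, and Apoe in Kupffer cells was at -0.01 (SE 0.17, adjusted p = 0.9999) and no longer called. The other 9 members in Kupffer cells, and all 10 in ECs and HSCs, were called lower under both scalings, where library totals called 63.2%, 71.4% and 69.8% of all genes in either direction. In the 8 WT libraries alone, Apoe in Kupffer cells was at -1.04 (adjusted p = 0.0873) while the other members there, and all members in ECs and HSCs, were called.

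To ask which members were present beyond the share of the hepatocyte reference genes, the libraries were scaled to those 36 genes, so that a member in fixed proportion to them has a log2 ratio of 0. Apoe was above this share in all 3 cell types and Apoc1 in Kupffer cells and HSCs, while the other 8 members were called in none. Apoe had a log2 ratio of 3.70 in Kupffer cells (SE 0.52, adjusted p = 1.79e-06), 2.79 in ECs (SE 0.50, adjusted p = 2.99e-05) and 3.81 in HSCs (SE 0.52, adjusted p = 8.71e-07). Apoc1 had 2.13 in Kupffer cells (SE 0.41, adjusted p = 8.50e-05), 1.22 in HSCs (SE 0.40, adjusted p = 0.00768) and 0.26 in ECs (SE 0.40, adjusted p = 0.566). The other 8 had log2 ratios of -0.26 to 0.98, with Apoa4 highest in ECs (0.98, SE 0.53, adjusted p = 0.0911) and in HSCs (0.91, SE 0.53, adjusted p = 0.118). Most genes of a cell are above the share of hepatocyte RNA, and 81.4% of all genes tested in Kupffer cells, 86.3% in ECs and 88.8% in HSCs were called higher on this scale, so that the count of members called was below the background. In the 8 WT libraries alone, Apoe in ECs (1.5002, adjusted p = 0.0863) and Apoc1 in HSCs (0.39, adjusted p = 0.612) were not called. With 849 reference genes chosen by a rule on hepatocyte and Kupffer cell levels, Apoc1 in HSCs was at 0.44 (adjusted p = 0.239), while Apoa1, Apoa2, Apob and Apoh were called lower in HSCs, at -0.97 to -0.80.

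**Figure D3:**
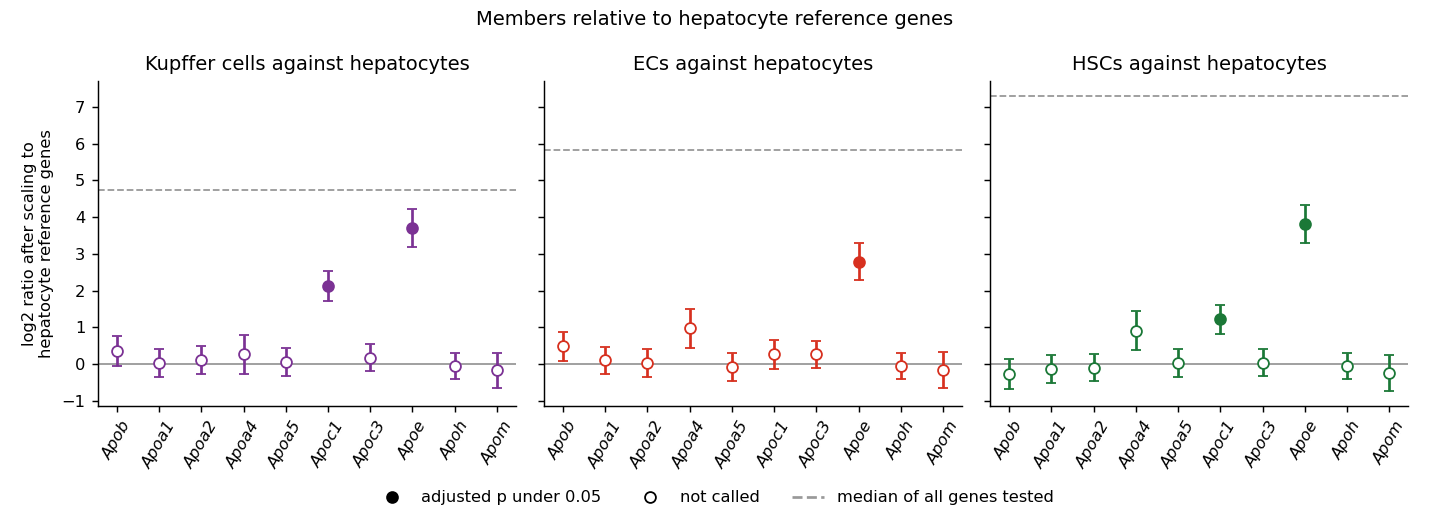
The log2 ratio of each member to hepatocytes after scaling to 36 hepatocyte reference genes, with bars for the SE, filled points for an adjusted p under 0.05 and a dashed line for the median of all genes tested (4.75 in Kupffer cells, 5.83 in ECs, 7.31 in HSCs). Apoe, and Apoc1 in Kupffer cells and HSCs, lie above 0 and below the dashed line. The other points were not called and lie between -0.26 (Apob in HSCs) and 0.98 (Apoa4 in ECs).

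The level above the reference share can also be written in CPM, by taking from each value the share that the reference median gives. For Apoe in Kupffer cells, 28038 and 28761 CPM were above this share under the WT label and 31099 and 32089 CPM under the KO label. In ECs these were 8735 and 8517 CPM against 12399 and 11122 CPM, and in HSCs 6632 and 6510 CPM against 8367 and 7719 CPM. The values under the KO label were thus the higher ones in all 3 cell types, and no test was made on this scale. In ECs and HSCs a larger share was taken from the libraries labelled WT, and Apoe before subtraction overlapped between labels. The remainder was not rescaled to the RNA left in each library, so it does not measure Apoe within the named cell type. For Apoc1, Kupffer cells were above the share by 791, 525, 306 and 587 CPM, and the HSC libraries by 19.4 to 52.8 CPM. Kupffer cell markers in HSC libraries KO 8, KO 20, WT 32 and WT 40 had 1.10%, 5.13%, 4.80% and 1.04% of their level in Kupffer cells, and their part in the Apoc1 level of HSCs was not tested.

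Between genotype labels, 9 of the 10 members were lower in ECs labelled KO, and the exception was Apoe. The direction is given by label, since the Zeb2 count could not be used as a check. Apoa5 had 471 and 685 CPM in ECs labelled WT and 58.5 and 54.5 CPM in those labelled KO, a log2 difference of -3.35 (SE 0.28, adjusted p = 0.0190, edgeR), the lowest of the 10. Apoa2 had 896 and 2439 CPM against 195 and 161 CPM (log2 difference -3.22, SE 0.49, adjusted p = 0.0361). Apom had 72.3 and 136 CPM against 11.4 and 11.3 CPM (log2 difference -3.19, SE 0.35, adjusted p = 0.0245). In these 3 genes, as in the other 6 that were called, both libraries labelled KO lay below both labelled WT. Apob (-3.14), Apoa4 (-3.05), Apoa1 (-2.93), Apoc3 (-2.90), Apoh (-2.72) and Apoc1 (-2.65) followed, with adjusted p of 0.0290 to 0.0495. Apoe differed by -0.16 (SE 0.33, adjusted p = 0.876), and its labels overlapped. Of all 14631 genes tested in ECs, 2.08% were called and 1.97% were called lower under the KO label, while 24.5% were lower without overlap between labels in TMM-scaled CPM. The 36 hepatocyte reference genes had a median log2 difference of -2.89 in the same fit, and 32 of them were called lower. The call rested on both libraries labelled KO, since 0 members were called without EC KO 46 (adjusted p of at least 0.0608 for the 9) and 1 (Apoa5) without EC KO 6, whereas the log2 differences of the 9 stayed between -3.74 and -1.86 with any library left out.

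**Figure D4:**
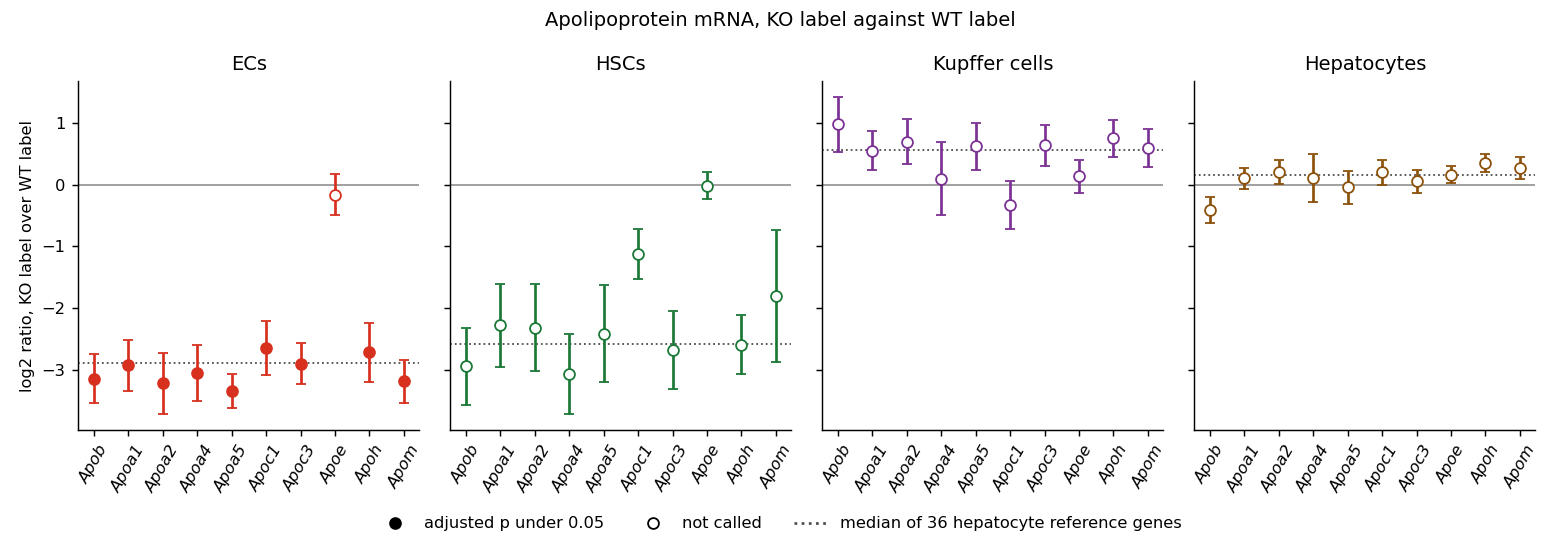
The log2 ratio of the KO label over the WT label for each member in each cell type, with bars for the SE, filled points for an adjusted p under 0.05 and a dotted line for the median of 36 hepatocyte reference genes. In ECs, 9 members lie between -3.35 and -2.65 near the dotted line and Apoe lies at -0.16, and no member was called in the other cell types.

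In HSCs, 0 members passed the threshold with edgeR, where 0% of the 14390 genes tested did. Unadjusted p-values were under 0.05 for 8 members, all lower under the KO label, against 7% of all genes. DESeq2 called 6 members, against 1.63% of the 24592 genes with any read in HSCs. Shares for DESeq2, here and below, are over all genes with any read, whether or not it gave them an adjusted p. They are thus taken over more genes than those for edgeR. Apoh had 106 and 207 CPM in HSCs labelled WT and 17.8 and 33.8 CPM in those labelled KO (log2 difference -2.59, SE 0.48, adjusted p = 0.309). Apoa4 had 9.16 and 29.1 CPM against 2.35 and 2.21 CPM (log2 difference -3.07, SE 0.65, adjusted p = 0.343). For 9 of the 10 members both libraries labelled KO lay below both labelled WT, as for 20.6% of all genes. Apoe was the exception here too, with overlapping labels and a log2 difference of -0.01 (SE 0.22, adjusted p = 0.994). Apoc1 differed by -1.12 (SE 0.41, adjusted p = 0.534), the smallest size among the other 9, for which the lowest value was that of Apoa4. The reference genes had a median of -2.59 and 0 of 36 were called, with 35 at an unadjusted p under 0.05.

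In Kupffer cells the values leaned the other way and 0 members were called by edgeR or DESeq2, where edgeR called 0% of 13867 genes and DESeq2 0.332%. Apoh had 151 and 226 CPM under the WT label and 304 and 346 CPM under the KO label (log2 difference 0.75, SE 0.30, adjusted p = 0.933) and was the 1 member with an unadjusted p under 0.05, against 3.35% of all genes higher at that threshold. Both libraries labelled KO lay above both labelled WT for 7 members, as for 18.5% of all genes. Log2 differences ran from -0.33 (Apoc1) to 0.98 (Apob), and Apoe was at 0.14 (SE 0.27). The median of the reference genes was 0.56. In hepatocytes, 0 members were called by edgeR or DESeq2 and 0 had an unadjusted p under 0.05, where edgeR called 0% of 11548 genes, DESeq2 called 0.156% and 7.11% had an unadjusted p under 0.05. Log2 differences ran from -0.41 (Apob, 621 and 556 CPM under the WT label and 496 and 359 CPM under the KO label, SE 0.21) to 0.36 (Apoh, 2977 and 2915 CPM against 3568 and 3638 CPM, SE 0.15). The labels did not overlap for 1 member that was lower and 2 that were higher under the KO label, as for 20.9% and 19.9% of all genes.

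Relative to the 36 reference genes, the difference between labels was called for Apoe alone. In ECs, Apoe was higher under the KO label by 2.56 on the log2 scale (SE 0.94, adjusted p = 0.00978) and the other 9 members lay between -0.59 and 0.25, while 79.8% of all genes tested were called higher on this scale. In HSCs, Apoe was higher by 2.70 (SE 0.95, adjusted p = 0.0390) and the others lay between -0.41 and 1.66, with 57.5% of all genes called higher. The highest of these others was Apoc1 in HSCs, at 1.66 (SE 1.08, adjusted p = 0.150). In Kupffer cells 0 members were called on this scale, 0 had an unadjusted p under 0.05, and 0.0433% of all genes were called, with 7.49% at an unadjusted p under 0.05. Apoe in ECs and in HSCs was not called with any 1 library left out (adjusted p of 0.0607 to 0.445).

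The difference between labels was then compared between cell types as an interaction over the 16 libraries. Between ECs and Kupffer cells, 6 members differed, all with a lower value in ECs, against 1.96% of the 17214 genes tested. These were Apob (-4.13, SE 0.73, adjusted p = 0.02001), Apoa5 (-3.99), Apoa2 (-3.93), Apoc3 (-3.56), Apoa1 (-3.50) and Apoh (-3.48), with adjusted p of at most 0.0437. Apoe had -0.31 (SE 0.39, adjusted p = 0.795). Between HSCs and Kupffer cells, Apob differed by -3.95 (SE 0.74, adjusted p = 0.0385), where 0.581% of all genes were called lower. The count between ECs and Kupffer cells fell to 0 without EC WT 38, EC KO 6, EC KO 46, Kupffer cell WT 31 or Kupffer cell KO 43 and to 1 without Kupffer cell WT 39. That between HSCs and Kupffer cells was 0 without any of Kupffer cell WT 31, WT 39 and KO 43, HSC KO 8 and HSC WT 40, 3 without HSC WT 32 or Kupffer cell KO 27, and 6 without HSC KO 20. No member was called between ECs and HSCs with edgeR or DESeq2 and 1 had an unadjusted p under 0.05, against 0.0349%, 0.302% and 4.85% of all genes, so that a difference in size between these 2 cell types was not detected. ECs against hepatocytes gave 0 members with edgeR (0.0697% of all genes), 9 with DESeq2 (1.97%) and 9 at an unadjusted p under 0.05 (9.12%). HSCs against hepatocytes gave 0 with edgeR (0.0755%), 4 with DESeq2 (1.14%) and 7 at an unadjusted p under 0.05 (7.16%). Kupffer cells against hepatocytes gave 0 under each (0.0116%, 0.482% and 8.18%).

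Across the 16 libraries, the log2 CPM of the other 8 members correlated with each other at Pearson's r of 0.958 to 0.999, and that of Apoe with them at 0.785 to 0.865. Apoe and Apoc1 correlated at 0.95. These values are descriptions over libraries that share cell types and hepatocyte RNA. Of 8872 genes whose mean reached 10 CPM, those most like Apoe were Cd1d1 (r = 0.985), Stard5 (0.983) and Gsto1 (0.981), and those most like Apoc1 were Pygl, Rnf128 and Igf1 (r = 0.984 to 0.986). Those most like Apoa1 were Chchd10 (r = 0.9996), Fga (0.998) and Ttr (0.998), and those most like Apob were Ugt2b34, Kmo and Cyp2c67 (r = 0.995 to 0.996).

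The other apolipoprotein genes were read from a list of 17 symbols. Of these, Apoc4, which is a neighbour of Apoe and Apoc1 on chromosome 7, had 630 to 721 CPM in hepatocytes, 34.1 to 65.9 CPM in Kupffer cells, 11.6 to 124 CPM in ECs and 2.83 to 47.9 CPM in HSCs. Relative to the reference genes its log2 ratio was -0.05 in Kupffer cells (adjusted p = 0.981), -0.23 in ECs and -0.20 in HSCs, so that it was not called where Apoe and Apoc1 were. Clu, the apolipoprotein J gene, had 2241 to 2642 CPM in hepatocytes, 519 to 1120 CPM in HSCs, 312 to 650 CPM in ECs and 189 to 320 CPM in Kupffer cells. It was above the reference share in HSCs (log2 ratio 3.90, SE 0.46, adjusted p = 9.65e-08) and in ECs (1.79, SE 0.42, adjusted p = 0.000509) and was at 0.47 in Kupffer cells (adjusted p = 0.307). Apoc2, the activator of lipoprotein lipase, is listed under 2 gene models that share 79.5% of the exon bases of the first on the same strand, and 16 reads in all were counted on them, so that no value is given. Between labels, 10 genes of this list were tested in ECs and 3 were called, all lower under the KO label (Apoc4 -2.76, Apof -2.73, Apon -2.60), against 2.08% of all genes and a median of -2.89 for the hepatocyte reference genes. These 3 had 0.643 to 1.36 times the percentage of the reference genes in EC libraries, and 0 were called among the 9 tested in hepatocytes, the 11 in HSCs and the 12 in Kupffer cells.

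Calls against hepatocytes in this and the following lists are on the TMM scale, and unscaled CPM can differ from them in direction. Of 10 genes that assemble and export lipoproteins, all 10 were called lower in ECs than in hepatocytes, and 9 of the 10 in HSCs as well as in Kupffer cells. In unscaled CPM, Apobec1 (17.9 to 33.8 CPM in ECs against 15.1 to 28.9 CPM in hepatocytes) and Tmem41b (11.1 to 19.7 CPM in ECs and 9.06 to 17.9 CPM in HSCs against 9.61 to 14.4 CPM) overlapped with hepatocytes, as did Surf4 in HSCs (478 to 582 CPM against 483 to 524 CPM). In Kupffer cells, Surf4 (355 to 488 CPM) and Tmem41b (8.80 to 13.3 CPM) overlapped with hepatocytes as well. P4hb, a subunit of the microsomal triglyceride transfer complex with wider duties in protein folding, had the highest level per kilobase in all 4 cell types (741 CPM per kb in hepatocytes, 442 in HSCs, 318 in Kupffer cells and 316 in ECs). Apobec1, the enzyme that edits Apob mRNA, was the 1 gene of this list that was called higher than in hepatocytes, with 247 to 302 CPM in Kupffer cells (log2 ratio 2.55, SE 0.27, adjusted p = 6.64e-06) and 122 to 154 CPM in HSCs (1.51, SE 0.26, adjusted p = 0.000361), against 15.1 to 28.9 CPM in hepatocytes. Mttp, which loads lipid onto Apob, was the 1 gene of the list that was called between labels, with a log2 difference of -2.72 in ECs (SE 0.37, adjusted p = 0.0300). Of all genes tested in ECs 2.08% were called, and the hepatocyte reference genes had a median of -2.89 in the same fit. Mttp had 1.09 to 1.48 times the percentage of the reference genes in the 4 EC libraries.

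Among 12 receptor genes, 11 were tested against hepatocytes. In ECs, Cd36, a scavenger receptor for fatty acids and modified lipoproteins, was the 1 gene called higher (700 to 1129 CPM, log2 ratio 4.01, SE 0.44, adjusted p = 8.80e-06) and 8 were called lower. In Kupffer cells 2 were higher, Cd36 (160 to 728 CPM, log2 ratio 2.56) and Lrp1, which clears Apoe-bearing remnants (628 to 806 CPM, log2 ratio 1.45, SE 0.17, adjusted p = 1.44e-05), and 4 were lower. In HSCs Lrp1 had 770 to 1044 CPM (log2 ratio 1.73, SE 0.17, adjusted p = 3.06e-06) and was 1 of 3 genes called higher, against 6 lower. Scarb1, the receptor for high-density lipoproteins, was among the 3 highest genes of the list per kilobase in each cell type (181 CPM per kb in Kupffer cells, 178 in ECs, 115 in hepatocytes and 56.0 in HSCs). Between labels, 2 of 10 were called in ECs, Lsr, the lipolysis-stimulated receptor, at -2.64 (adjusted p = 0.0492) and Lrp1 at -1.47 (SE 0.23, adjusted p = 0.0379), against 2.08% of all genes. Lsr had 0.998 to 1.27 times the percentage of the hepatocyte reference genes, whose median log2 difference was -2.89. The summed level of the 10 HSC markers in ECs was 1260 and 1507 CPM under the WT label and 528 and 794 CPM under the KO label, and its part in the Lrp1 difference was not tested.

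Of 13 genes that remodel lipoproteins, 8 were called lower and 5 higher in Kupffer cells than in hepatocytes, 8 lower and 4 higher in HSCs, and 8 lower and 2 higher in ECs. In Kupffer cells Pltp, the phospholipid transfer protein, had 1494 to 2813 CPM against 19.1 to 45.4 CPM in hepatocytes (log2 ratio 4.84, SE 0.37, adjusted p = 5.48e-07), and Lpl, lipoprotein lipase, had 972 to 1051 CPM against 20.4 to 40.9 CPM (3.95, SE 0.47, adjusted p = 1.81e-05). In ECs Gpihbp1, which carries lipoprotein lipase to the capillary lumen, had 1301 to 2675 CPM against 6.00 to 9.28 CPM in hepatocytes (6.60, SE 0.26, adjusted p = 1.29e-08). In hepatocytes Lcat, which esterifies cholesterol on high-density lipoproteins, had the highest level per kilobase (664 CPM per kb). Between labels, 3 of 13 were called in ECs, Angptl4 (-3.95, SE 0.55, adjusted p = 0.0300), Lcat (-3.11) and Lipc, hepatic lipase (-2.15), against 2.08% of all genes and a median of -2.89 for the hepatocyte reference genes. Lcat had 0.760 to 1.01, Lipc 0.851 to 1.84 and Angptl4 0.606 to 3.24 times the percentage of the reference genes in EC libraries. Of 15 transcriptional regulators of lipid metabolism, Nr1h3, the liver X receptor alpha, had 674 to 1135 CPM in Kupffer cells against 121 to 158 CPM in hepatocytes (log2 ratio 1.48, SE 0.34, adjusted p = 0.00299). Creb3l3, a membrane-bound activator of apolipoprotein genes in liver, had the highest level of the list per kilobase in hepatocytes (215 CPM per kb) and was the 1 gene of the 15 called between labels, at -3.08 in ECs (SE 0.28, adjusted p = 0.0205), where it had 0.806 to 1.30 times the percentage of the reference genes.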

How the data were processed

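RNA was measured in 16 libraries of ECs, HSCs, Kupffer cells and hepatocytes (2 of each label). The authors deposited raw counts, the number of reads on each Ensembl gene, with 1 table per library and no normalization. The submitters' processing notes name Trimmomatic 0.32, HISAT2 2.1.0, HTSeq 0.9.1, edgeR and GRCm38. The annotation release and strand setting are not given in the sources used here, and the series and sample descriptions name different library preparations. The 5 summary rows of each table were left out. CPM used the total over 47729 gene rows, and levels per kilobase used the merged exons of coding transcripts in GENCODE M21, which holds 98.9% of the identifiers. Hepatocytes were separated by centrifugation and the other cells were sorted.

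Differences between labels within each cell type were tested by edgeR 4.0.16 (filterByExpr, TMM, quasi-likelihood test, Benjamini-Hochberg adjusted p under 0.05), and levels and interactions over all 16 libraries with 1 mean per group. For the tests relative to hepatocyte RNA, the median ratio over 36 reference genes replaced TMM. The SE was taken from the log2 ratio and the F statistic. Simulated data were used for the tests between labels within a cell type, and for ECs against hepatocytes relative to the reference genes. In the latter, hepatocyte shares were drawn without regard to label. They were also drawn from a narrower range than the reference medians of the EC libraries, 1.84% (EC KO 46) to 21.7% (EC WT 38). The interactions and the other tests were not simulated. The alternatives were DESeq2 1.42.0, RLE size factors, library totals, other filters on low counts, all 16 libraries in 1 fit, the 8 WT libraries, Alb alone or 849 genes as reference (mean of at least 10 CPM in hepatocytes labelled WT and at least 8 times that in Kupffer cells labelled WT), and leaving out each library. The use of library totals was added after the values had been seen. All 10 members are named in every comparison. From the pathway lists, every gene called between labels and up to 3 genes per list and cell type with the highest level were eligible, and Apobec1, Lrp1 in Kupffer cells and Tmem41b were also named after their values were seen. The genes most like a member are the 3 with the highest Pearson correlation of log2 CPM (prior count 2). The members and lists were chosen with earlier results of these data known. Sequences are from RefSeq. With 2 libraries per group, the number of libraries limits the precision more than the depth, and the floor of 3 counts covers counting error only.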

Additional observations from a re-analysis of the deposited data

Results flagged for a closer look

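The difference between labels differed between ECs and Kupffer cells for 6 members by a test of the interaction (edgeR, 16 libraries), with log2 values in ECs minus Kupffer cells of -4.13 for Apob, -3.99 for Apoa5, -3.93 for Apoa2, -3.56 for Apoc3, -3.50 for Apoa1 and -3.48 for Apoh. In ECs the 6 had log2 differences of -3.35 to -2.72, with both libraries labelled KO below both labelled WT, and in Kupffer cells of 0.56 to 0.98. Between HSCs and Kupffer cells the test was passed by Apob alone, at -3.95. The hepatocyte reference genes had median log2 differences between labels of -2.89 in ECs, -2.59 in HSCs and 0.56 in Kupffer cells, and their part in these 7 results was not tested.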

How the results depend on the processing

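With 2 libraries per group, each call rests on few libraries. Leaving out a library also loosened the filter on low counts, so that more genes were tested. Members called ranged from 0 to 9 between labels in ECs, 0 to 0 for ECs and 0 to 0 for HSCs relative to the reference genes, and, for differences between cell types, 0 to 6 (ECs minus Kupffer cells), 0 to 2 (ECs minus hepatocytes), 0 to 6 (HSCs minus Kupffer cells) and 0 to 3 (HSCs minus hepatocytes). The log2 difference between labels crossed 0 for Apoe in ECs (-0.29 to 0.0031) and HSCs (-0.10 to 0.061), in Kupffer cells for Apoa4 (-0.49 to 1.15) and Apoc1 (-0.80 to 0.011), and in hepatocytes for Apoa1 (-0.073 to 0.31), Apoa4 (-0.32 to 0.73), Apoa5 (-0.30 to 0.28) and Apoc3 (-0.11 to 0.25), none of which had been called. DESeq2 called 6 members in HSCs, 9 for ECs minus hepatocytes, 7 for HSCs minus Kupffer cells and 4 for HSCs minus hepatocytes. With no filter on low counts, edgeR called 9, 9, 8 and 8 for these, and 0 relative to the reference genes in ECs and in HSCs. In all 16 libraries at once, 3 were called in HSCs. Library totals gave 0 for HSCs minus Kupffer cells, and log2 differences of 0.0060 for Apoe in HSCs and -0.0018 for Apoc3 in hepatocytes. Alb alone as reference gave 0 in HSCs. The 849 reference genes gave 5 members called in HSCs against hepatocytes, and Apoc1 in ECs at -0.14 between labels and -0.051 against hepatocytes. The 8 WT libraries gave 0 members relative to the reference genes in ECs and 1 in HSCs. The cause of these changes was not tested. Of all genes, 305 were called between labels in ECs with edgeR, 996 with DESeq2, 1259 with no filter, 489 with at least 10 counts in every library and 190 with library totals. In HSCs these were 0 with edgeR, 401 with DESeq2, 663 with no filter and 178 in all 16 libraries, in Kupffer cells 0, 75 and 159 and in hepatocytes 0, 31 and 227 with edgeR, DESeq2 and no filter. The remaining values for single members were counted over the alternatives that include the 8 WT libraries but not the fits without a single library. Of these values, 463 kept their direction and side of the threshold, 24 passed it anew and 15 no longer passed it. No paired analysis was made, because the labels do not tell which libraries share a liver. The numbers in the labels differ for every library, so they do not show that the livers were separate. The 16 libraries were treated as independent, although libraries of different cell types may stem from the same liver. The tests between cell types take no account of this.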
